A study of Canis lupus familiaris with 6 samples.

Results

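The cytoskeletal mediators of apical extrusion described here are 9 genes: FLNA, ACTN4, LIMA1, VIM, KRT8, KRT18, PLEC, CAV1 and MYH9. They were chosen by name, and every probe that the scanner files assign to one of these symbols was kept, which gave 16 of the 43603 probes on the array. Of the 9 genes, 8 had a probe, from 1 for KRT18 to 3 for MYH9, and 1, KRT8, had 0 under its own symbol. All 16 probes were well above background on all 6 arrays and all entered the test, so none was lost to the filter on dim probes.

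The arrays measured total RNA of MDCK-pTR GFP-RasV12 cells, dog kidney epithelial cells that express GFP-tagged, constitutively active Ras when tetracycline is added. The 3 alone samples were such cells cultured by themselves, and the 3 mix samples were the same cells grown among normal MDCK cells, both with tetracycline for 24 h and both sorted for GFP before RNA extraction. Every sample of both groups was therefore of cells with the tetracycline-driven transgene and passed through the sorter, and no group was made up of cells without RasV12. The study's methods give no purity of the sorted cells, so a remainder of normal MDCK cells in the mix samples is not excluded. The treatment text gives 10 MDCK cells to 1 RasV12 cell, whereas the source name of mix replicate 2 gives 100 to 1, and the extraction text names cells that also carry mCherry-β-catenin Δ131, whereas the titles and the study's methods describe cells without that mutant. The labels do not say that replicates came from separate cultures, so p-values measure the spread between these samples.

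When a few cells of an epithelial sheet express an oncogene such as RasV12, they can be squeezed out of the sheet towards the lumen, a process called apical extrusion, and this depends on the normal cells around them. Both sides of the contact rebuild their cytoskeleton. Filamin and vimentin gather in the normal neighbours at the contact. In the transformed cell, EPLIN, caveolin-1 and plectin act with myosin II and protein kinase A, and keratin 8 and keratin 18 form the paired filaments of simple epithelium to which plectin ties the other networks. Much of this was described for the position and phosphorylation of proteins, whereas the arrays measured transcripts, and in the sorted RasV12 cells.

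Probes of 60 bases for non-muscle myosin IIA, plectin, filamin A and α-actinin-4, whose differences are described below, follow with both LIMA1 probes, shown because they disagreed. MYH9 probe 2 and FLNA probe 2 are described below without their sequences. They are printed 5′ to 3′ in lower case as the files give them, with no base singled out in capitals. Each has at least 1 of its 3 reading frames free of stop codons, and the files do not say in which exon it lies. LIMA1 probe 2 covers 7880 bases of genome with 60 bases of sequence and so crosses an intron. Probes of a gene are numbered here from the lowest difference upwards.
MYH9 probe 1 (canFam3 chr10:28119662-28119721, plus strand): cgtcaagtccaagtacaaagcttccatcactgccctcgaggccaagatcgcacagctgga
MYH9 probe 3 (canFam3 chr10:28068936-28068995, plus strand): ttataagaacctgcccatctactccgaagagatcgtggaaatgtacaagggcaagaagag
PLEC probe 1 (canFam3 chr13:37450753-37450812, minus strand): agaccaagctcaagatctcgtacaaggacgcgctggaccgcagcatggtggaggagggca
PLEC probe 2 (canFam3 chr13:37454964-37455023, minus strand): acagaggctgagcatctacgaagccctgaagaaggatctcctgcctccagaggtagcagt
FLNA probe 1 (canFam3 chrX:122083040-122083099, plus strand): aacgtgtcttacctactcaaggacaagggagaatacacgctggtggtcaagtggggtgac
ACTN4 probe 1 (canFam3 chr1:114356542-114356601, minus strand): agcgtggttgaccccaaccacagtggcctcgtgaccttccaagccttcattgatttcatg
ACTN4 probe 2 (canFam3 chr1:114382008-114382067, minus strand): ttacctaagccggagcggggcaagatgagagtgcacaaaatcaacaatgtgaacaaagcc
LIMA1 probe 1 (canFam3 chr27:4560524-4560583, plus strand): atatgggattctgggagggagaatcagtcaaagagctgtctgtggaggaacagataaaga
LIMA1 probe 2 (canFam3 chr27:4518900-4526779, plus strand): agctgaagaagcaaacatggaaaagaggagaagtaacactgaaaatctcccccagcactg

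Levels below are log2 processed intensities relative to the 75th percentile of the same array, and differences are mix minus alone on that scale. They compare arrays at 1 probe and never a probe with another. In sorted cells, fewer cells of a type and less RNA per cell cannot be told apart. The 3 alone arrays lay on one slide and the 3 mix arrays on another, so slide and culture cannot be told apart. Of the 16 probes, 3 were called lower in mixed culture and 0 higher at an adjusted p under 0.05 (limma, Benjamini-Hochberg over 26535 tested probes), in 2 genes, MYH9 and PLEC. That is 18.8% of the member probes, against 11.2% of all tested probes called in either direction and 5.72% called lower. The groups did not overlap at 9 of the 16, each time with the mix arrays lower, against 37.2% of tested probes in either direction. The median difference was -0.29 over the member probes and 0.00 over all tested probes, and 13 of the 16 had a lower mean in mixed culture. Probes of a gene share a transcript and are not independent.

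**Figure D1:**
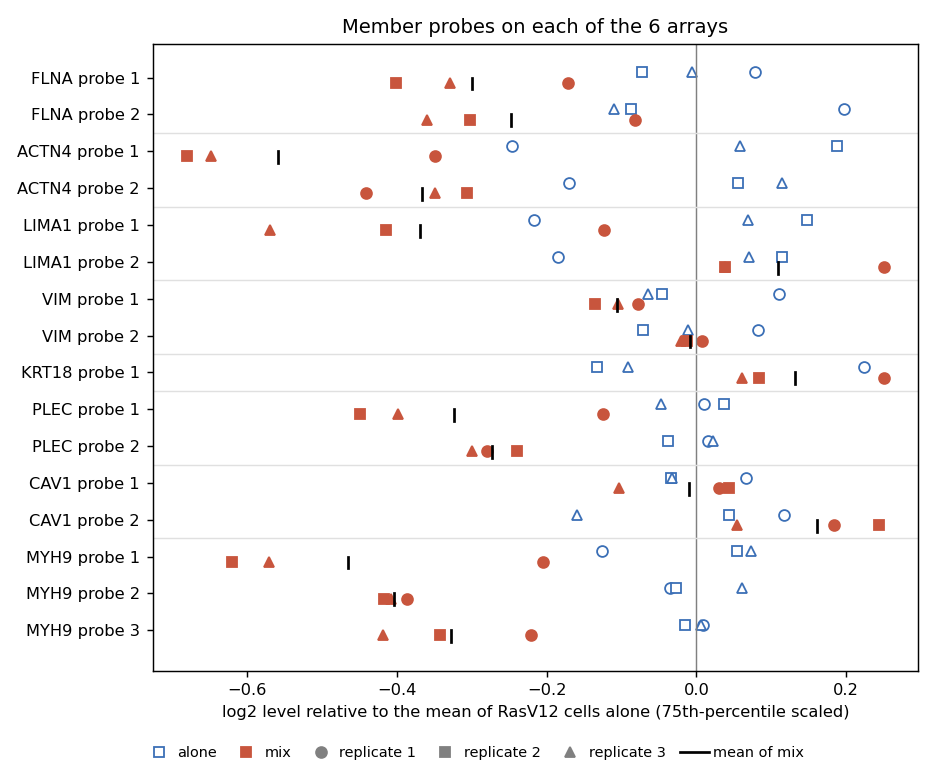
Level of the 16 member probes on each of the 6 arrays, as the log2 level minus the mean of the 3 alone arrays at that probe, with alone arrays as open blue symbols, mix arrays as filled red symbols, the replicate number as the symbol's shape, and a black bar at the mean of the mix arrays. All mix arrays lie left of all alone arrays at the 3 MYH9, 2 PLEC and 2 ACTN4 probes and at 1 probe each of FLNA and VIM, whereas the groups mingle at both CAV1 probes and at KRT18.

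MYH9 encodes the heavy chain of non-muscle myosin IIA, the motor that contracts actin bundles at cell contacts. At MYH9 probe 2 the level was 5.69, 5.69 and 5.78 in alone replicates 1, 2 and 3, and 5.33, 5.30 and 5.31 in mix replicates 1, 2 and 3. The 3 mix arrays lay close together and below every alone array. The level fell by 24.4%, or by 0.40 on the log2 scale (SE 0.07, 95% confidence interval -0.56 to -0.24, adjusted p = 0.0221, limma). This probe is spotted 5 times on each array, and each value is the mean of those spots, which varied by 3.19% to 4.79% (coefficient of variation) within an array. At MYH9 probe 3, which lies 53843 bases upstream of probe 2 in the genome, the level was -0.19, -0.21 and -0.19 alone and -0.42, -0.54 and -0.61 in mixed culture. Again no mix array reached the alone arrays, and the level fell by 20.3%, or by 0.33 on the log2 scale (SE 0.08, adjusted p = 0.0445, limma; 0.0596 with the replicate block). At MYH9 probe 1 the level was 0.44, 0.62 and 0.64 alone and 0.36, -0.06 and -0.01 in mixed culture. Mix replicate 1 lay just under alone replicate 1, and the difference of -0.47 (SE 0.13, adjusted p = 0.0653) did not pass the threshold.

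PLEC encodes plectin, the large cytolinker that joins intermediate filaments to actin, microtubules and cell junctions. At PLEC probe 2 the level was -1.61, -1.66 and -1.60 alone and -1.91, -1.86 and -1.93 in mixed culture. The SD was 0.03 in each group and the gap between the groups was wider than either. The level fell by 17.3%, or by 0.27 on the log2 scale (SE 0.07, 95% confidence interval -0.43 to -0.12, adjusted p = 0.0463, limma; 0.0719 with the replicate block). At PLEC probe 1, 4211 bases away, the level was 5.05, 5.08 and 4.99 alone and 4.91, 4.59 and 4.64 in mixed culture. The groups did not overlap, with mix replicate 1 nearest the alone arrays, and the difference of -0.32 (SE 0.10, adjusted p = 0.0875) did not pass.

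The actin crosslinkers had lower means without passing the threshold. ACTN4 encodes α-actinin-4, which bundles actin filaments. At ACTN4 probe 1 the level was -0.43, 0.00 and -0.13 alone and -0.53, -0.87 and -0.83 in mixed culture, so that alone replicate 1 and mix replicate 1 came near each other without crossing. The difference was -0.56 (SE 0.14, adjusted p = 0.0548, limma), the lowest of the 16. At ACTN4 probe 2, 25466 bases away, the level was -0.93, -0.71 and -0.65 alone and -1.20, -1.07 and -1.11 in mixed culture. The groups did not overlap there either, and the difference was -0.37 (SE 0.10, adjusted p = 0.0588).

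FLNA encodes filamin A, which crosslinks actin into orthogonal networks. At FLNA probe 1 the level was 4.79, 4.64 and 4.71 alone and 4.54, 4.31 and 4.38 in mixed culture, and the groups did not overlap. The difference was -0.30 (SE 0.09, 95% confidence interval -0.51 to -0.09, adjusted p = 0.0754, limma). At FLNA probe 2, 268 bases away, the level was 4.62, 4.34 and 4.31 alone and 4.34, 4.12 and 4.06 in mixed culture, so that mix replicate 1 fell among the alone arrays. Its difference was -0.25 (SE 0.12, adjusted p = 0.208).

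LIMA1 encodes EPLIN, which binds along actin filaments, and its probes pointed apart. At LIMA1 probe 1 the level was -1.32, -0.96 and -1.03 alone and -1.23, -1.52 and -1.67 in mixed culture, with mix replicate 1 above alone replicate 1. The difference was -0.37 (SE 0.15, adjusted p = 0.145, limma). At LIMA1 probe 2, 41624 bases upstream and assigned to the same transcript, the level was -2.33, -2.03 and -2.07 alone and -1.90, -2.11 and -2.11 in mixed culture. There the groups overlapped and the difference was 0.11 (SE 0.11, 95% confidence interval -0.16 to 0.37, adjusted p = 0.542). The differences at the 2 probes lay 0.48 apart, and whether they differed was not tested. With spike-in scaling the difference at probe 2 was -0.05.

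**Figure D2:**
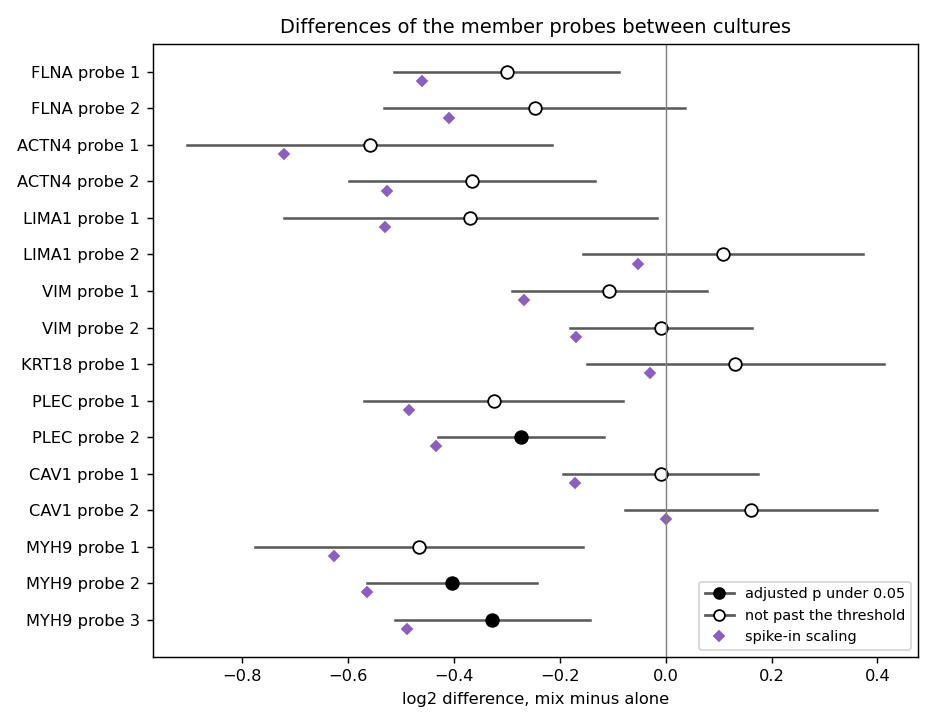
Difference of each member probe between cultures (log2, mix minus alone) as a circle with its 95% confidence interval as a line, filled where the adjusted p was under 0.05, and the difference after scaling the arrays to their spike-in controls as a purple diamond. The interval lies wholly below 0 at 9 probes, of MYH9, PLEC, ACTN4, FLNA and LIMA1, and spike-in scaling moves every probe by -0.16.

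The filament genes differed little. VIM encodes vimentin, an intermediate filament that MDCK cells make beside keratins. At VIM probe 2 the level was 7.79, 7.64 and 7.70 alone and 7.72, 7.70 and 7.69 in mixed culture, with all mix arrays inside the range of the alone arrays. The difference was -0.01, and its 95% confidence interval, -0.18 to 0.16, reaches a change of 12.0% upwards. At VIM probe 1, which crosses an intron, the level was 9.06, 8.91 and 8.89 alone and 8.88, 8.82 and 8.85 in mixed culture. The mix arrays lay just below, and the difference was -0.11 (SE 0.08, adjusted p = 0.389, limma).

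KRT18 encodes keratin 18, the type I partner of keratin 8. At its probe the level was 8.60, 8.25 and 8.29 alone and 8.63, 8.46 and 8.44 in mixed culture, so alone replicate 1 lay among the mix arrays. The difference was 0.13 (SE 0.12, 95% confidence interval -0.15 to 0.41, adjusted p = 0.484, limma), and -0.03 with spike-in scaling. KRT8 had no probe under its symbol. A probe outside the rule, named TC70930 and described in the files as similar to human cytokeratin 8, lies 39989 bases from the KRT18 probe on chromosome 27 and was picked out after its values were seen. Its level was 8.54, 8.40 and 8.38 alone and 8.56, 8.43 and 8.47 in mixed culture, a difference of 0.05 (SE 0.08, 95% confidence interval -0.14 to 0.24, adjusted p = 0.714). Its groups overlapped, as those of KRT18 did.

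CAV1 encodes caveolin-1, the membrane protein that shapes caveolae. At CAV1 probe 1 the level was 7.50, 7.40 and 7.40 alone and 7.47, 7.48 and 7.33 in mixed culture, with no order between the groups. The difference was -0.01 (95% confidence interval -0.19 to 0.17, adjusted p = 0.946, limma), and it was above 0 with quantile normalization. At CAV1 probe 2, 136 bases away, the level was 5.01, 4.94 and 4.74 alone and 5.08, 5.14 and 4.95 in mixed culture, and the difference was 0.16 (SE 0.10, adjusted p = 0.315). With spike-in scaling this probe stood at 0.00.

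How many members passed depended on single arrays and on the scaling. Without alone replicate 2, alone replicate 3, mix replicate 2 or mix replicate 3, 0 of the 16 probes were called (limma), with 7, 8, 7 and 7 of them at an unadjusted p under 0.05, against 9 with all arrays. Over the whole array the same omissions left 24, 7, 9 and 12 called probes, against 2978 with all arrays. Without alone replicate 1 the calls were 6, in MYH9 at all 3 probes, ACTN4 at both and PLEC probe 2, and without mix replicate 1 they were 4, in MYH9 at all 3 probes and PLEC probe 1, while the whole array had 7335 and 2009 called probes. Every probe of MYH9, PLEC, ACTN4 and FLNA, LIMA1 probe 1 and VIM probe 1 had a lower mean in mixed culture in all 14 alternatives run. Many of these alternatives could not change that sign. The replicate block, the filters and the t-test leave the difference as it is, the deposited table has the same scaling, and spike-in scaling lowered every probe. Leaving out 1 array cannot reverse the sign where the groups do not overlap. With the replicate block 1 probe was called, MYH9 probe 2 (adjusted p = 0.0412). Of the 13 probes with a lower mean in mixed culture, mix replicate 1 was the highest of the mix arrays at 10.

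**Figure D3:**
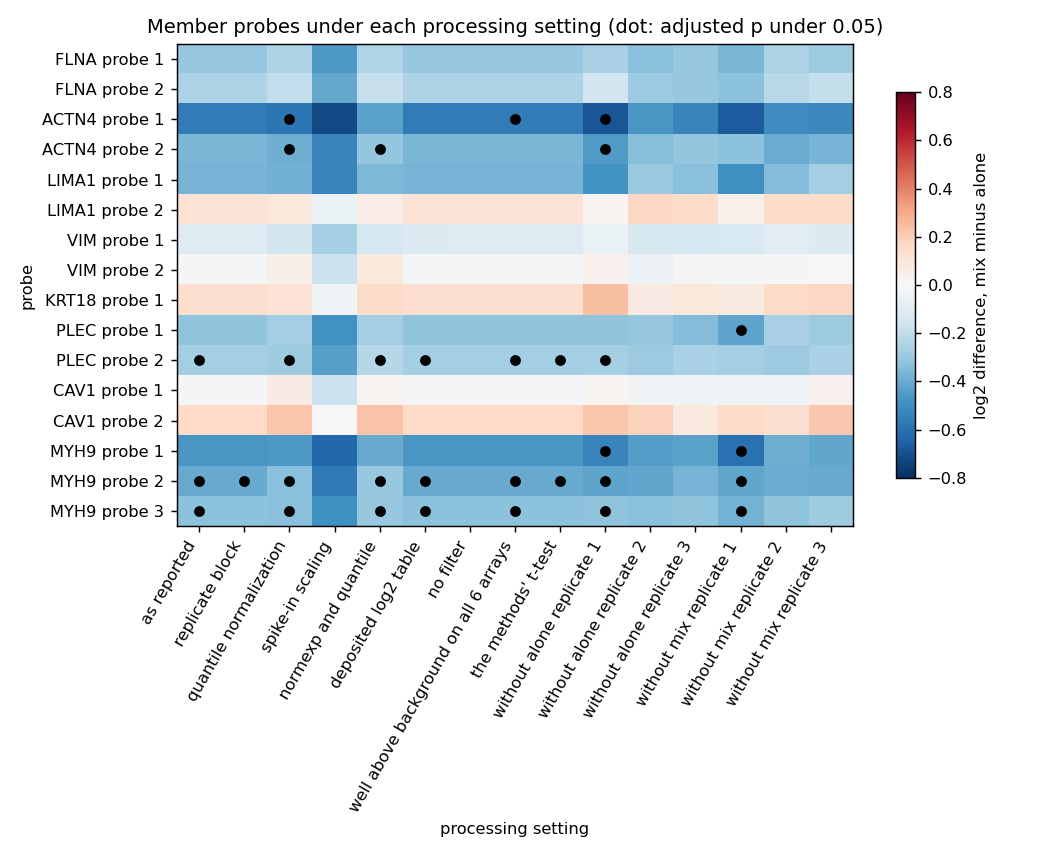
Difference of each member probe (colour, log2 mix minus alone, blue lower in mixed culture) under the reported setting and 14 alternatives, one column each, with a dot where the adjusted p was under 0.05. The rows of MYH9, PLEC, ACTN4 and FLNA stay blue in every column, whereas dots are absent with spike-in scaling, with no filter on dim probes and without alone replicate 2, alone replicate 3, mix replicate 2 or mix replicate 3.

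Scaling to the spike-in controls gave lower values throughout. Of 10 spike-in controls, 7 gave signal well above background, and each of these read higher on the mix arrays, by 0.10 to 0.24 after 75th-percentile scaling. Setting them level moved every member by -0.16, the median of all tested probes to -0.16 and the member median to -0.45. MYH9 probes 1, 2 and 3 then stood at -0.63, -0.56 and -0.49 (adjusted p = 0.0745, 0.0538 and 0.0593, limma), PLEC probes 1 and 2 at -0.49 and -0.43. Under that scaling 0 of the 16 probes were called, with 11 at an unadjusted p under 0.05, against 995 called over the array.

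The genes around the members were described with 6 lists of the pathway, which hold 144 genes, of which 116 were on the array and 101 could be tested. At the probe with the highest mean, 5 of these 101 were called lower and 2 higher, or 6.93% (11 and 2 when any called probe counts). Over all tested probes the share called was 11.2%, counted per probe and not per gene. The lists lay below it at the probe with the highest mean and above it when any called probe counts, so the order depends on the count. Of 19 tested genes of myosin II and its regulators 1 was called, lower in mixed culture, and the list's median difference was -0.04.

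Among actin crosslinkers and actin-binding proteins, of 38 tested genes 3 were called lower and 0 higher at the probe with the highest mean, and 7 lower when any called probe counts, with a median difference of -0.11. PFN2, a profilin that feeds actin monomers to growing filaments, stood at -0.19, 0.07 and 0.14 alone and -0.75, -0.76 and -0.80 in mixed culture at the probe that stands for it. It fell by 0.78 on the log2 scale there (SE 0.10, adjusted p = 0.0160, limma) and by 0.72 at its other probe (adjusted p = 0.0200). The mix arrays lay below every alone array at both. Ezrin and moesin, which tie actin to the plasma membrane, were called at 1 of 3 EZR probes, with a difference of -0.52 (SE 0.11, adjusted p = 0.0349), and at 3 of 4 MSN probes, with differences of -0.30, -0.51 and -0.51. The actin-binding calponin CNN3 was called at 1 of 2 probes (-0.40), the bundling protein PLS3 at 1 of 5 (-0.34) and ACTR2, a subunit of the Arp2/3 complex that branches actin, at 1 of 4 (-0.31). The remaining probes of EZR, MSN, CNN3 and PLS3 also had lower means without passing, whereas the fourth ACTR2 probe stood at -0.0048 (adjusted p = 0.978). With the replicate block both PFN2 probes and the PLS3 probe stayed called. The probes named above as called for EZR (adjusted p = 0.0543, limma), MSN (0.0598 to 0.0690), CNN3 (0.0620) and ACTR2 (0.0541) did not pass with it. The EZR probe with the highest mean, not called without the block, passed with it (-0.33, adjusted p = 0.0499, limma). At the probe with the highest mean, the list then had 5 genes called lower. The seventh gene, CORO1C, fell outside the 6 to be named with values.

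Among keratins and other intermediate filament genes, 12 could be tested, and 2 were called higher and 1 lower, none of them a keratin. LMNB2, a nuclear lamin, stood at -1.26, -1.18 and -1.20 alone and -1.89, -2.02 and -2.14 in mixed culture, and it fell by 0.80 on the log2 scale (SE 0.09, adjusted p = 0.0131, limma). LMNB1, another lamin, was called higher at 1 of 2 probes by 0.38 (SE 0.08, adjusted p = 0.0388), and EVPL, the plakin envoplakin, by 0.44 (SE 0.08, adjusted p = 0.0241). With spike-in scaling neither was called, and the other LMNB1 probe turned to -0.04. LMNA was called lower at 1 of 4 probes, by -0.42 (adjusted p = 0.0463). The list's median difference was -0.04.

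Caveolar genes, microtubule genes and the small GTPases and PKA upstream of extrusion gave 0 calls among 6, 14 and 12 tested genes at the probe with the highest mean (limma), with medians of -0.01, -0.01 and -0.12. The caveolar ATPase EHD2 was called lower at 1 of its 2 probes, where it stood at -1.68, -1.45 and -1.45 alone and -2.09, -2.23 and -2.34 in mixed culture. It fell by 0.69 on the log2 scale (SE 0.10, adjusted p = 0.0190), against -0.13 at its other probe (adjusted p = 0.400). SDPR, a cavin of the caveolar coat picked out after its value was seen, had the widest difference of these 3 lists, 1.85 (SE 0.49, adjusted p = 0.0583), and did not pass.

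**Figure D4:**
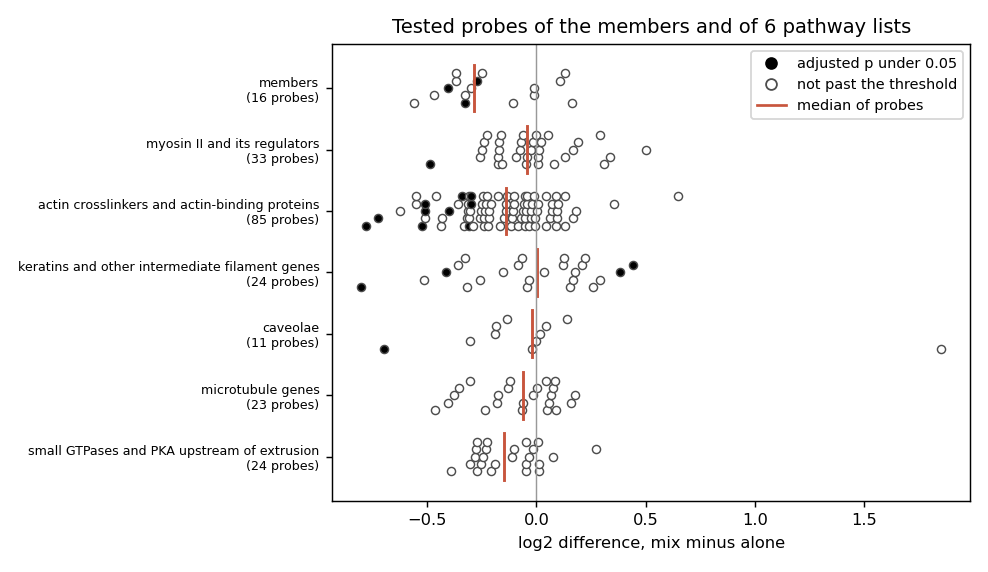
Difference of every tested probe (log2, mix minus alone) of the members and of 6 pathway lists, 1 circle per probe, filled where the adjusted p was under 0.05, with the median of the probes as a red bar and circles spread vertically for legibility. The member probes have a median of -0.29, and the filled circles of the actin list all lie on the lower side.

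The labelled cell type and the other cells that a GFP gate could hold were checked with marker lists. All 10 kidney epithelial markers on the array were tested, CDH1, EPCAM, CDH16 and PAX8 among them, and each was well above background on all 6 arrays at 1 probe or more. CLDN2 was called higher at its 3 probes, by 1.71 to 2.84, and OCLN at 1 of 2, by 0.41. The 2.84 is from a dim probe, well above background on 5 arrays, whose difference was as low as 1.04 among the alternatives. The brightest CLDN2 probe gave 2.49. At the probe with the highest mean, 4 of the 10 kidney epithelial genes had a lower mean in mixed culture. Among them were CDH1 (-0.37, adjusted p = 0.0648, limma), whose groups did not overlap, and CLDN7 (-0.52, adjusted p = 0.218). CLDN1 (0.80), CLDN4 (0.72), OCLN (0.33), TJP1 (0.28) and CDH16 (0.17) had higher means there. None of these passed at that probe. Ras-MAPK output genes, which cells without RasV12 should express less, went both ways, with a lower mean in mixed culture at 7 of the 11 tested. EPHA2, CCND1 and FOSL1 were called lower, by -0.71, -0.59 and -0.52, and EGR1 higher, by 0.67 and 0.77 at its probes. With the replicate block CCND1 did not pass (adjusted p = 0.0633, limma). SPRED1 (0.39, adjusted p = 0.0567, limma), SPRY2 (0.28) and ETV5 (0.10) also had higher means at their brightest probes without passing. For the 11 tested genes of that list the median difference was -0.49, and their summed level relative to the 75th percentile was 128 to 131 on the alone arrays and 108 to 124 on the mix arrays, without overlap. That sum is not on the log2 scale and is mostly 1 DUSP6 probe, itself not called (-0.19, adjusted p = 0.205, limma). The mean log2 level of the 11 genes did overlap, at 1.06 to 1.12 and 0.79 to 1.09. The median difference was -0.29 without mix replicate 1 and -0.13 with normexp and quantile normalization. The part of this list in the lower MYH9 and PLEC values was not tested. Fibroblast, endothelial and leukocyte markers gave 0 calls among 5 of 8, 3 of 4 and 2 of 4 genes that could be tested (limma). The fibroblast genes COL3A1, PDGFRA and DCN, the endothelial CDH5 and the leukocyte PTPRC and ITGAM were not well above background on all arrays of either group. Summed levels ran from 1.72 to 1.87 alone and from 2.04 to 2.26 in mixed culture for fibroblast markers, from 5.02 to 7.29 and from 5.47 to 7.37 for endothelial markers, and from 0.152 to 0.214 and from 0.174 to 0.198 for leukocyte markers.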

How the data were processed

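RNA of 6 sorted samples, 3 alone and 3 mix, was labelled with Cy3 and hybridised to 1-colour Agilent dog arrays, 1 array each. The authors deposited scanner files made with Agilent Feature Extraction 10.10.1.1, whose processed intensity is background-corrected but not scaled between arrays, and a log2 value table, which matched log2 processed intensity minus the log2 75th percentile of each array. Probe coordinates are on canFam3 per the file headers. No spot was saturated. The 75th percentile was 592 to 700 units of intensity, and 60.8% to 66.4% of probes per array were flagged well above background. The number of arrays limits the precision.

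Spots of a probe were averaged without control and outlier spots, scaled to the 75th percentile and fitted on the log2 scale with limma 3.58.1 in R 4.3.3 (lmFit and eBayes, two-sided, Benjamini-Hochberg adjustment, threshold 0.05). A probe was tested if every array of the alone group or every array of the mix group had it well above background, which left 26535. The members, lists and tests were chosen with earlier results of these data known. Text names all member probes and, for each pathway list, up to 6 genes with a called probe, groups that do not overlap and signal well above background on all 6 arrays. A gene's list count uses its probe with the highest mean. The 1 called gene of the myosin list is not reported here by name. Marker lists give the genes that decide the check and those called. On simulated data for this comparison with 200 of 26529 probes changed, 81% of 2-fold and 95% of 4-fold changes were recovered, with 10 false calls. Changes under 2-fold, the size of all member differences, were not simulated, nor was an effect shared by the arrays of a slide. The recovery at the sizes reported here is therefore not known. Same-numbered samples of both groups deviated together (r = 0.35, 0.16 and 0.30 across probes, all over 0.1). Alone replicate 2 went more with mix replicate 3 (r = 0.24) than with mix replicate 2, so the numbers in the titles did not pair throughout. Same-numbered arrays also shared a position on their slides, so number and position cannot be told apart. The replicate block was run as an alternative. Alternatives also covered normalization, background correction (normexp, offset 50), spike-in scaling, the filter, the deposited table, the methods' t-test and each array left out.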

Additional observations from a re-analysis of the deposited data

How the results depend on the processing

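The 3 member probes called, all lower, became 1 with the replicate block, in which the paired replicate numbers enter the model, 5 with quantile normalization, 4 with normexp and quantile normalization or with the filter set to all 6 arrays, 3 with the deposited log2 table, 2 with the methods' t-test (8 unadjusted), and 0 with spike-in scaling or with no filter on dim probes, where 11 and 8 probes had an unadjusted p under 0.05. When each array was omitted in turn it was 0 to 6, and in no alternative was a member probe called higher. Among 224 member values under alternatives 9 changed sign, all at probes that were not called: LIMA1 probe 2 (-0.052) and KRT18 (-0.029) with spike-in scaling, VIM probe 2 with quantile normalization (0.047), normexp (0.084) and without alone replicate 1 (0.032, with -0.044 to 0.032 over single arrays left out), and CAV1 probe 1 with quantile normalization (0.065), normexp (0.019), without alone replicate 1 (0.023) and without mix replicate 3 (0.037, with -0.037 to 0.037 over single arrays left out). Among 573 values of list genes 5 changed sign, the fourth ACTR2 probe with quantile normalization (0.0018) and without alone replicate 1 (0.024), alone replicate 3 or mix replicate 2 (0.067, with -0.063 to 0.067 over single arrays left out), and the first LMNB1 probe with spike-in scaling (-0.036). The actin list's 3 called genes became 0 to 7 over the settings that keep all arrays and 0 to 9 with 1 array left out. The 3 of the intermediate filament list became 0 to 4 and 0 to 3, the 4 Ras-MAPK genes 0 to 5 in both, the 1 kidney epithelial gene 0 to 3 and 0 to 5, the 1 myosin gene 0 to 1 and 0 to 2, and the 0 caveolar, microtubule and GTPase genes at most 0, 2 and 2 and at most 1, 2 and 0. Other markers gave 0 throughout. The cause of these moves was not tested. Slide was not tried as a block, because the alone and mix arrays shared no slide.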
